A study of Danio rerio with 12 samples.

Results

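The aryl hydrocarbon receptor (AHR) genes ahr1a and ahr2, the partner and partner-like genes arnt2 and bmal1a, and tiparp, a gene that the receptor induces, were examined in regrowing larval zebrafish fins. Members were all probe sets whose platform symbol is one of these 5 genes, which gave 6 of the 15502 probe sets tested, 1 for each gene except arnt2 with 2. The data came from 12 Affymetrix arrays in 4 groups of 3. Larvae of the AB strain lost the caudal fin at 2 days post fertilization and were then held for 1 h in water containing either DMSO, the vehicle, or TCDD at 0.5 ng/mL. Regrown fin tissue was taken at 2 or 3 days post amputation (dpa). No group carried an engineered allele per the labels. For each array the RNA of 150 pooled fins was used, so p-values measure the spread between pools. The labels do not say whether the pools came from separate clutches.

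The AHR is a transcription factor of the basic helix-loop-helix PAS (bHLH-PAS) family that is held in the cytosol by chaperones until a ligand such as the dioxin TCDD binds it. It then enters the nucleus, pairs with an ARNT protein and switches on genes of xenobiotic metabolism, cyp1a foremost. Zebrafish have several AHR genes: ahr2 encodes the form that mediates the developmental toxicity of TCDD, whereas the ahr1a product does not bind TCDD. The product of arnt2 is a dimerization partner of PAS proteins, and bmal1a encodes a relative of ARNT that pairs with CLOCK in the circadian oscillator. The tiparp product is an ADP-ribosyltransferase that in mice marks and represses the AHR, which closes a feedback loop.

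In the RefSeq annotation of the GRCz12tu assembly, used here for names and neighbours only, ahr2 (Entrez 30517) lies next to ahr1b. The gene ahr1a (Entrez 246224) lies between hdac9b and ankrd28b, tiparp (Entrez 563506) between ssr3 and lekr1, arnt2 (Entrez 64277) between ctxnd1 and abhd17c, and bmal1a (Entrez 58098) between btbd10a and borcs5. No tested probe set was assigned to ahr1b or arnt alone, so these genes could not be read here.

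Values are the deposited ratios on a log2 scale, where 0 is the median of a probe set over the 12 arrays, except for probe sets whose median ratio is below 1. They compare arrays for 1 probe set and not probe sets with each other. An effect is 1 group mean minus another, with its standard error (SE) from a limma fit to all 12 arrays. A probe set counted as called where its p, adjusted by Benjamini and Hochberg over all 15502, was under 0.05. The exposure check was clear: cyp1a read between −10.3 and −5.37 on the 6 vehicle arrays and between 0.98 and 2.10 on the 6 TCDD arrays. Epidermal marker genes had a median log2 ratio between −0.29 and 0.14 on every array, but ratios centred per probe set cannot show whether a marker is present, so the tissue label could not be checked. Precision is limited by the number of arrays, and in whole fin tissue a change in the share of a cell type and a change of RNA per cell cannot be told apart.

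**Figure D1:**
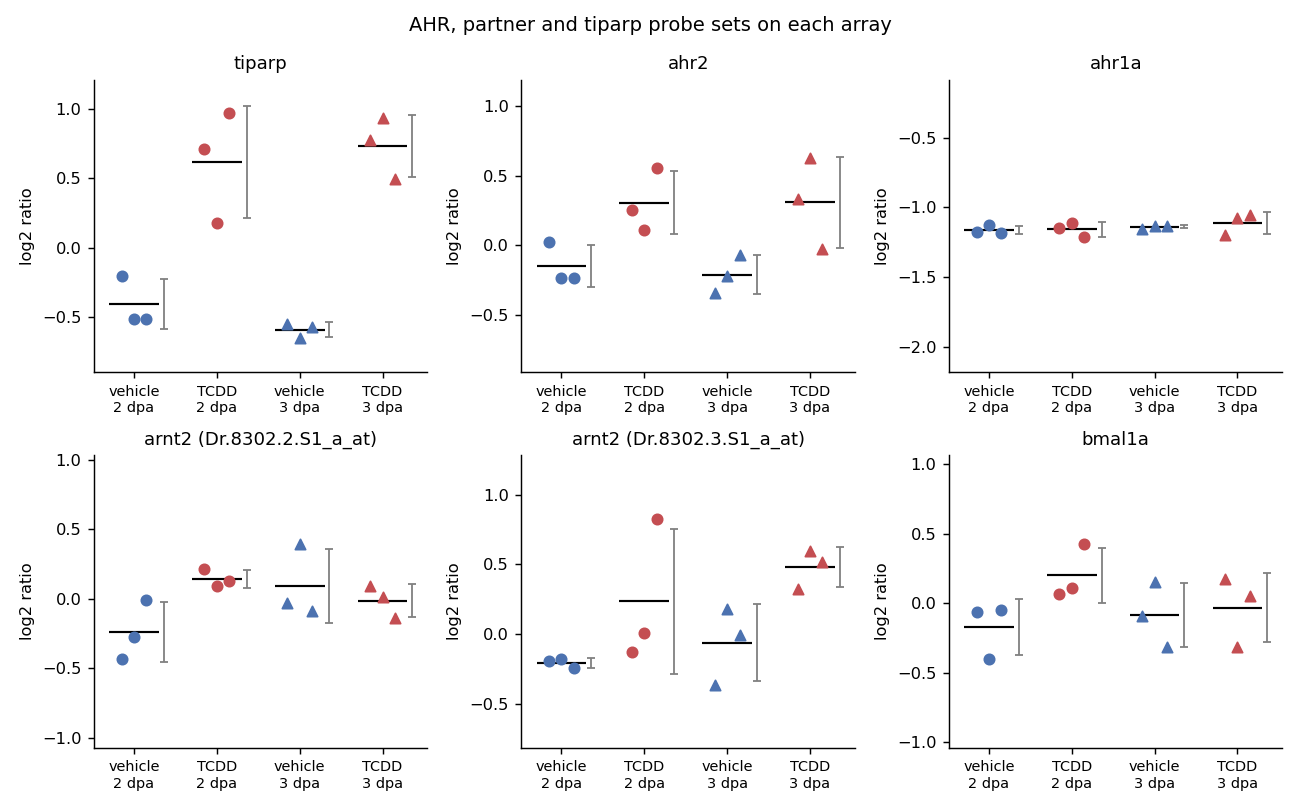
Log2 ratio (y axis, 0 is a ratio of 1) of the 6 probe sets on each array, by group (x axis). Points are arrays in the order of replicates 1 to 3, black lines are group means and grey bars are 1 SD on either side (n = 3), and every panel spans the same height; for tiparp all 6 TCDD arrays lie above all 6 vehicle arrays, and ahr1a is nearly flat.

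The transcript of tiparp was the member most clearly raised by TCDD. At 2 dpa its log2 ratio was −0.20, −0.51 and −0.51 on the vehicle arrays (replicates 1 to 3) and 0.71, 0.18 and 0.97 on the TCDD arrays. At 3 dpa it was −0.54, −0.65 and −0.57 with vehicle and 0.77, 0.93 and 0.49 with TCDD. All 6 TCDD arrays lay above all 6 vehicle arrays, and the smallest TCDD value was that of replicate 2 at 2 dpa. Such complete separation over both days, TCDD higher, was found in 1.64% of all probe sets.

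At 3 dpa tiparp rose by 1.32 (SE 0.19, n = 3 against 3, adjusted p = 0.0199), which is 2.50-fold (95% interval 1.86 to 3.36). At 2 dpa it was 1.02 above vehicle (SE 0.19, adjusted p = 0.0908), which is 2.03-fold (1.51 to 2.73) and did not pass the threshold. The mean effect over both days was 1.17 (SE 0.14, n = 6 against 6, adjusted p = 0.00289), which is 2.25-fold (1.83 to 2.78). The effect differed between the days by 0.30 (SE 0.27, interval −0.30 to 0.90, adjusted p = 1.000), so no change of the TCDD effect from 2 to 3 dpa was shown. Ordered by group mean, tiparp was lowest in vehicle at 3 dpa (−0.59 ± 0.06 SD), then in vehicle at 2 dpa (−0.41 ± 0.18), TCDD at 2 dpa (0.62 ± 0.40) and TCDD at 3 dpa (0.73 ± 0.22). Within either treatment the days did not differ beyond the error of the fit, with 3 dpa minus 2 dpa at −0.18 in vehicle and 0.12 in TCDD (SE 0.19 each, adjusted p = 1.000 and 0.997).

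By comparison, cyp1a was 8.70 higher at 2 dpa and 7.92 higher at 3 dpa (SE 1.09 each, adjusted p = 0.0165 and 0.0163). With 1 array left out the cyp1a effect ran from 7.20 (without vehicle 2 dpa replicate 3) to 9.53 (without vehicle 2 dpa replicate 1) at 2 dpa and from 7.21 to 8.51 at 3 dpa, and with a pseudocount of 0.1 it was 4.59 and 4.57, so its size is not well fixed. Its call was lost without any of the 3 TCDD arrays at 2 dpa (adjusted p up to 0.0817), and at 3 dpa without vehicle 3 dpa replicate 1 (0.0734) or TCDD 3 dpa replicate 3 (0.0562). Over all 21 alternative settings the call was kept in 17 at 2 dpa (adjusted p up to 0.103) and in 18 at 3 dpa. Of the 6 member probe sets, 0 were called at 2 dpa, where limma called 0.161% of all probe sets, and only tiparp was called at 3 dpa, where it called 0.574%. For the mean effect tiparp was again the only member called, against 5.0% of all probe sets. At an unadjusted p under 0.05 the members numbered 3 at 2 dpa, 3 at 3 dpa and 3 for the mean effect, against 10.2%, 15.7% and 21.5% of all probe sets.

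The tiparp call at 3 dpa ended without vehicle 3 dpa replicate 1 (adjusted p = 0.0757) or 2 (0.0729) or TCDD 3 dpa replicate 1 (0.0558), and at 2 dpa a call arose without TCDD 2 dpa replicate 2 (effect 1.24, adjusted p = 0.0333). The mean effect stayed called whichever array was left out. Hybridisation controls read high on all 3 vehicle arrays at 3 dpa and on TCDD 3 dpa replicate 2, and with that level as a block the effect at 3 dpa, which then sets this replicate alone against the vehicle arrays, was 1.52 (adjusted p = 0.0332).

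The receptor gene ahr2 read higher with TCDD on each day, by less than tiparp. It was called on neither day, and only its mean effect over both days stood near the threshold, just short of it. At 2 dpa its log2 ratio was 0.03, −0.23 and −0.24 on the vehicle arrays and 0.26, 0.11 and 0.55 on the TCDD arrays. At 3 dpa it was −0.34, −0.22 and −0.07 with vehicle and 0.33, 0.62 and −0.03 with TCDD. On each day the 3 TCDD arrays lay above the 3 vehicle arrays, by a margin of 0.08 at 2 dpa and of 0.04 at 3 dpa. Over both days 5 of the 6 TCDD arrays lay above every vehicle array, and TCDD 3 dpa replicate 3 did not.

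The ahr2 difference was 0.45 at 2 dpa (SE 0.17, adjusted p = 0.406) and 0.52 at 3 dpa (SE 0.17, adjusted p = 0.198). The mean effect was 0.49 (SE 0.12, n = 6 against 6, adjusted p = 0.0513), which is 1.40-fold (95% interval 1.16 to 1.69). Without TCDD 3 dpa replicate 3 it was 0.57 and called (adjusted p = 0.0322). The adjusted p ranged from 0.0204 to 0.113 over all alternatives, so the choice of setting decides the call while the direction was the same in each. No difference between the days was shown for ahr2, with 3 dpa minus 2 dpa at −0.06 in vehicle (interval −0.45 to 0.32) and 0.003 in TCDD (interval −0.38 to 0.39). The group means were −0.21 ± 0.14 SD (vehicle, 3 dpa), −0.15 ± 0.15 (vehicle, 2 dpa), 0.31 ± 0.23 (TCDD, 2 dpa) and 0.31 ± 0.33 (TCDD, 3 dpa), in that order.

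**Figure D2:**
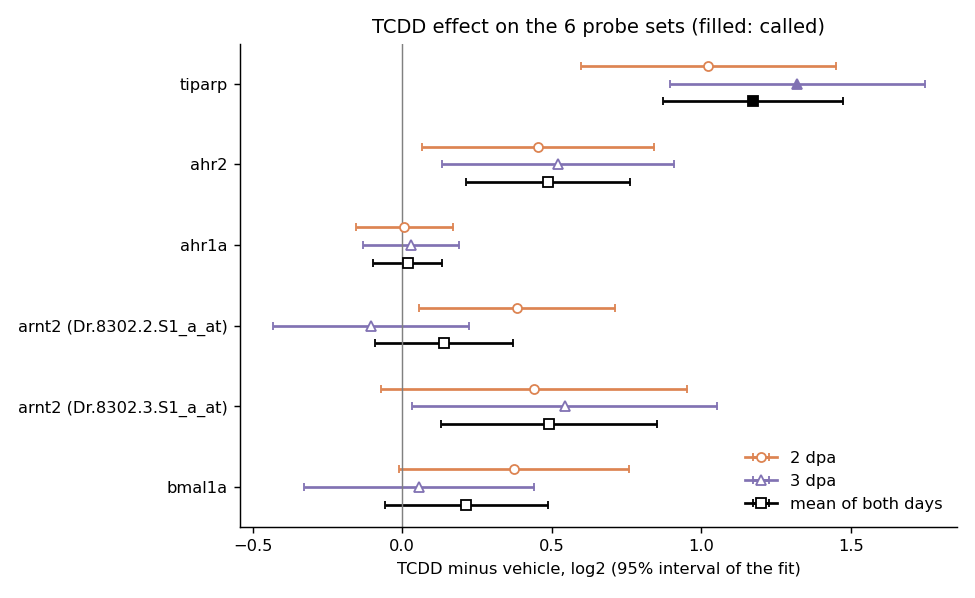
TCDD minus vehicle (x axis, log2) for the 6 probe sets at 2 dpa, at 3 dpa and as the mean of both days, with 95% intervals of the limma fit. Filled symbols are called at an adjusted p under 0.05: tiparp at 3 dpa (1.32) and for the mean (1.17), while the mean for ahr2 (0.49) has an interval above 0 but an adjusted p of 0.0513.

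Over the 12 arrays tiparp was the named gene whose pattern was most like that of ahr2 (Pearson r = 0.92, as a measure of likeness), ahead of dennd2b (0.88) and kpnb1 (0.87). The arrays fall into a vehicle and a TCDD cluster, so the relation was also taken within each treatment. The pair is the most alike for ahr2 on these same arrays. The p-values below do not allow for that, so they are descriptive and give no separate support for a relation. Within the 6 TCDD arrays r was 0.84 and rho 0.89 (exact permutation p = 0.0319 and 0.0333, 0.0639 and 0.0667 adjusted over the 2 relations computed), and r was 0.91 without the 2 arrays farthest from the ahr2 median. Within the 6 vehicle arrays r was 0.66 and rho 0.086 (exact permutation p = 0.164 and 0.919), and r was −0.21 without the 2 farthest arrays, so there it rests on those arrays. A single day holds only 3 arrays of a treatment, too few for a value. The patterns most like that of tiparp were those of gchfr (0.95), the regulator of GTP cyclohydrolase, fzd7a (0.94), a Wnt receptor, and rspo1 (0.93), a secreted Wnt enhancer.

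**Figure D3:**
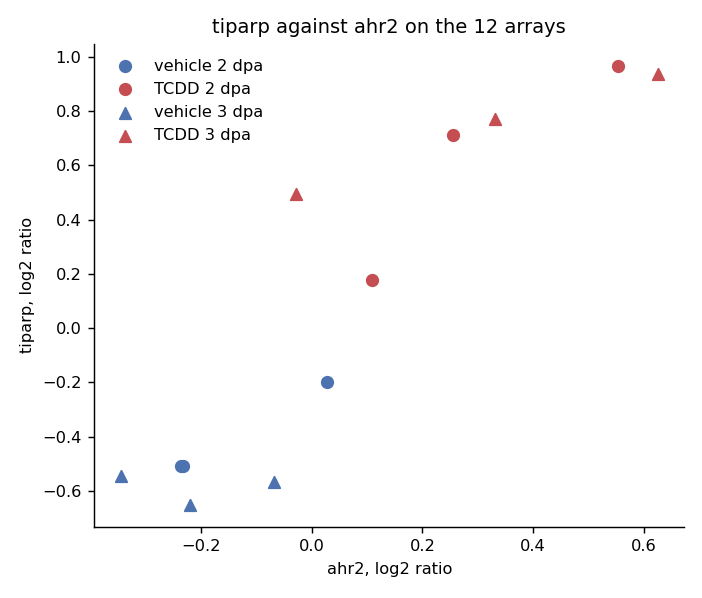
Log2 ratio of tiparp (y axis) against that of ahr2 (x axis) on the 12 arrays, blue for vehicle and red for TCDD, circles for 2 dpa and triangles for 3 dpa. The TCDD arrays lie at upper right, and among them the lowest ahr2 values (−0.03 and 0.11) go with the lowest tiparp values (0.49 and 0.18).

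A few other measures moved with the treatment on the same arrays. For GAPDH, the log2 ratio of the 5′ control minus that of the 3′ control was 0.17 to 0.49 on the TCDD arrays and −0.10 to 0.08 on the vehicle arrays. Each ratio is scaled per probe set, so the sign and the 0 of this value carry no meaning. Only its contrast between arrays can be read, as a sign of how complete the labelled transcripts are. The median of the fin fold and blastema markers, 16 probe sets of 9 genes, was lower with TCDD on each day. At 2 dpa it was −0.47 to 0.05 with TCDD and 0.09 to 0.16 with vehicle. At 3 dpa it was −0.55 to −0.12 with TCDD and −0.008 to 0.16 with vehicle. Of the 16, 1 was called lower at 3 dpa and 1 for the mean effect. Over all probe sets, 0.574% and 5.0% were called in either direction. Red blood cell markers, 6 probe sets of 5 genes, read −0.13 to 0.29 with TCDD and −0.86 to −0.32 with vehicle at 2 dpa, and overlapped at 3 dpa. Neural markers, 11 probe sets of 7 genes of which 7 have a median ratio below 1, read −0.68 to −0.05 with TCDD and −0.76 to −0.73 with vehicle at 2 dpa, and also overlapped at 3 dpa. In both lists 0 probe sets were called at 2 dpa, beside 0.161% of all. There the TCDD arrays lay above the vehicle arrays in 3 of 6 red blood cell probe sets and in 1 of 11 neural ones. Over all probe sets that share was 8.28%, so the neural count is near it. The median effect of the neural list at 2 dpa was 0.06. Of 9 neutrophil and macrophage probe sets, 1 was called higher on each day (3.23 and 3.70), beside 0.0903% and 0.284% of all probe sets. However, 6 of these 9 lay below 0 at 2 dpa (list median −0.04), and 8 lay above 0 at 3 dpa (0.11). Of 14 epidermal probe sets 2 were called lower for the mean effect, beside 5.0% of all probe sets called in either direction. In that list 8 of the 14 lay above 0 (list median 0.13). Skeletal muscle markers, 11 probe sets of 7 genes, overlapped on each day. At 3 dpa all 11 lay above 0 (list median 0.47), beside 8176 of the 15502. Their median was highest on TCDD 3 dpa replicate 3 (1.26), which also had the highest GAPDH value (0.49). Without that array the ahr2 mean effect was called. Liver markers, 5 probe sets of which 3 have a median ratio below 1, also overlapped. At 2 dpa all 5 lay below 0, beside 8017 of the 15502. The part of these measures in the tiparp and ahr2 values was not tested.

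The other receptor gene, ahr1a, showed no response to be read from these values. Its deposited ratio ran only from 0.431 to 0.482 over the 12 arrays, with a median of 0.454. In log2 it was −1.18, −1.13 and −1.18 in vehicle and −1.15, −1.11 and −1.21 in TCDD at 2 dpa, then −1.15, −1.13 and −1.13 in vehicle and −1.20, −1.08 and −1.05 in TCDD at 3 dpa. The groups overlapped on each day, and the mean TCDD effect was 0.02 (SE 0.05, interval −0.10 to 0.13, adjusted p = 0.896).

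The flat probe set belongs to a class that the scaling sets apart. A median below 1 was found in 3484 of the 15502 probe sets and above 1 in none, so for these probe sets the divisor was larger than their own median. Of those 3484, only 8.58% had a lower median than ahr1a, and 12.6% a smaller SD than its 0.048. The median SD was 0.111 in that class and 0.276 in the rest. Readings in that class were thus flatter than in the rest, and that of ahr1a was flatter than most of the class. The narrow interval above describes the reading and may understate a change of the transcript.

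**Figure D4:**
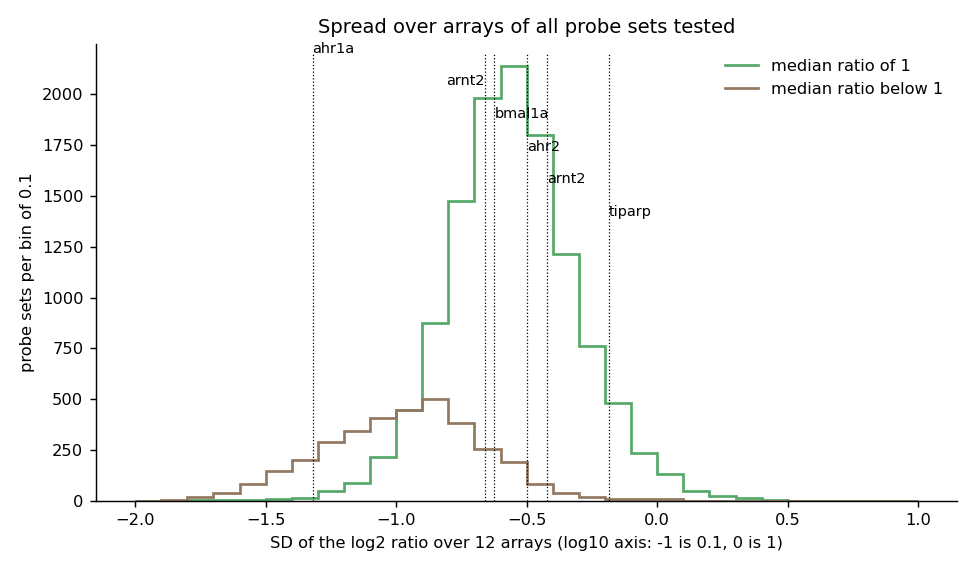
Number of probe sets (y axis) by the SD of their log2 ratio over the 12 arrays (x axis, log10 of the SD), for probe sets with a median ratio of 1 (green) and below 1 (brown). Dotted lines mark the 6 member probe sets: ahr1a, at an SD of 0.048, lies among the flat probe sets of low median, and tiparp, at 0.65, has a larger SD than 94.4% of all probe sets.

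For arnt2 the probe sets are called first and second here, in the order of their platform identifiers. Each read higher with TCDD at 2 dpa, but they did not give the same picture at 3 dpa. At 2 dpa the first read −0.44, −0.27 and −0.01 in vehicle and 0.21, 0.09 and 0.13 in TCDD. At 3 dpa it read −0.03, 0.40 and −0.09 in vehicle and 0.09, 0.01 and −0.14 in TCDD. Its groups were apart at 2 dpa, TCDD higher, and overlapped at 3 dpa, where vehicle replicate 2 was the highest array.

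The second arnt2 probe set read −0.19, −0.18 and −0.25 in vehicle and −0.13, 0.008 and 0.83 in TCDD at 2 dpa. At 3 dpa it read −0.36, 0.18 and −0.008 in vehicle and 0.32, 0.60 and 0.52 in TCDD. Its TCDD arrays lay above the vehicle arrays on each day, at 2 dpa by a margin of 0.04. The size of the effect at 2 dpa came mainly from replicate 3, as it was 0.14 without that array.

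The TCDD effect of the first was 0.38 at 2 dpa (SE 0.15, adjusted p = 0.406) and −0.10 at 3 dpa (SE 0.15, adjusted p = 0.814). The difference of its effect between the days was −0.49 (SE 0.21, unadjusted p = 0.041, adjusted p = 1.000). The effect of the second was 0.44 at 2 dpa (SE 0.23, adjusted p = 0.575) and 0.54 at 3 dpa (SE 0.23, adjusted p = 0.291), and its mean effect was 0.49 (SE 0.16, adjusted p = 0.11) against 0.14 (SE 0.10, adjusted p = 0.511) for the first. Taken within each array, the second minus the first was 0.29 ± 0.43 (SD, n = 6) with TCDD and −0.06 ± 0.23 (SD, n = 6) with vehicle, a difference of 0.35 that an exact permutation test chosen after seeing the values did not separate (two-sided p = 0.106). At 2 dpa alone the difference was 0.06 and the groups overlapped (exact two-sided p = 0.9). At 3 dpa alone the difference was 0.65 and the groups did not overlap (exact two-sided p = 0.1, the smallest that 3 against 3 can give). RefSeq lists 7 transcript models for arnt2, and which of them each probe set reads is not given in the sources used here.

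The gene bmal1a was apart between the groups at 2 dpa only. There it read −0.07, −0.40 and −0.05 in vehicle and 0.07, 0.11 and 0.43 in TCDD, a difference of 0.37 (SE 0.17, adjusted p = 0.507). At 3 dpa it read −0.09, 0.15 and −0.31 in vehicle and 0.17, −0.31 and 0.05 in TCDD, which overlap, with a difference of 0.05 (SE 0.17, interval −0.33 to 0.44, adjusted p = 0.932). The days were not shown to differ (−0.32, SE 0.24, adjusted p = 1.000). With the hybridisation control level as a block the difference at 3 dpa was −0.23, which sets TCDD 3 dpa replicate 2 alone against the vehicle arrays. The patterns most like that of bmal1a were those of brap (0.91), ide (0.86) and nfil3-5 (0.85), a bZIP gene of the list of clock partners and targets.

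Counted together, 5 of the 6 member probe sets, ahr1a being the exception, had all 3 TCDD arrays above all 3 vehicle arrays at 2 dpa, against 8.28% of all probe sets. At 3 dpa the count was 3 of 6, tiparp, ahr2 and the second arnt2 probe set, against 7.99%. Members share the arrays, so they are not independent of each other. From 2 to 3 dpa the groups of tiparp were apart in vehicle, 3 dpa lower, as in 11.1% of all probe sets in either direction, and 0 of 6 members were apart in TCDD, against 5.54%. No member was called between the days in vehicle or in TCDD, where limma called 0 of all probe sets (3.73% and 4.01% at an unadjusted p under 0.05). Nor was any called for the difference of the TCDD effect between days (0 called, 1.46% at an unadjusted p under 0.05). The only member at that unadjusted threshold was the first arnt2 probe set. In vehicle its 3 dpa minus 2 dpa was 0.33 (limma unadjusted p = 0.0479), and its difference between days was −0.49 (0.041).

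Of 17 further bHLH-PAS probe sets from 14 genes, 0 were called on either day, and for the mean effect bmal2, a gene of the ARNT-like group, was the only gene called. That is 1 of 17, near the 5.0% of all probe sets, as 0 of 17 is near the 0.161% and 0.574% of the single days, so the counts say nothing particular about these relatives. The called probe set of bmal2 read −0.45, −0.37 and −0.55 in vehicle and −0.01, 0.15 and 0.81 in TCDD at 2 dpa, then −0.69, 0.01 and −0.05 in vehicle and 0.81, 0.19 and 0.46 in TCDD at 3 dpa. The groups were apart on each day, and the mean effect was 0.75 (SE 0.18, adjusted p = 0.0409), a call kept with 3 of the 12 arrays left out in turn and lost with the other 9 (adjusted p up to 0.173 over its alternatives). A further bmal2 probe set read 0.04 (adjusted p = 0.726) and belongs to the class with a median below 1. The mean effects of the 17 probe sets had a median of 0.03, beside a median of 0.004 over all probe sets. They ran from −0.16 (clockb, a partner of BMAL proteins) to 0.82 (a probe set of epas1a, a hypoxia-inducible factor, adjusted p = 0.133). Further epas1a probe sets lay lower, with overlapping groups on each day. Of these 17, 6 belong to the class with a median below 1, among them sim1a, sim2 and npas4a, whose log2 ratios spanned 0.18, 0.11 and 0.34 over the 12 arrays.

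Among 25 probe sets of 18 clock partners and targets, 4 were called higher, beside 1.80% of all probe sets, and 0 lower for the mean effect, and the list's median was 0.45. On single days 0 were called, beside 0.161% and 0.574% of all probe sets, with list medians of 0.55 at 2 dpa and 0.21 at 3 dpa. The TCDD arrays lay above the vehicle arrays in 10 and 5 of the 25, beside 8.28% and 7.99% of all probe sets. Several of the 25 read the same gene and all share the arrays, so they are not independent. The bZIP activator gene tefa rose in each of its probe sets (1.29 and 1.12, adjusted p = 0.0195 and 0.0252), as did a cryptochrome probe set of cry2 (0.97, adjusted p = 0.0213), and the repressor gene bhlhe40 (0.86, adjusted p = 0.0319). A further cry2 probe set was not called. Its groups were apart at 2 dpa, TCDD higher. At 3 dpa they overlapped, at −0.36, 0.25 and −0.82 in vehicle and 0.79, −0.14 and −1.39 in TCDD. The bhlhe40 call was kept with 4 of the 12 arrays left out in turn (adjusted p up to 0.142 over its alternatives), the tefa calls with 11 and 8 and the cry2 call with 10. The light-induced gene per2 spanned the widest range of this list in 1 of its probe sets, which read −1.52, −2.62 and −3.42 in vehicle and 2.77, 1.33 and 0.66 in TCDD at 2 dpa, a difference of 4.11 that was not called (adjusted p = 0.272). At 3 dpa its groups overlapped. With each array left out in turn the count called for the mean effect ran from 0 to 6, with 6 called without TCDD 3 dpa replicate 2.

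**Figure D5:**
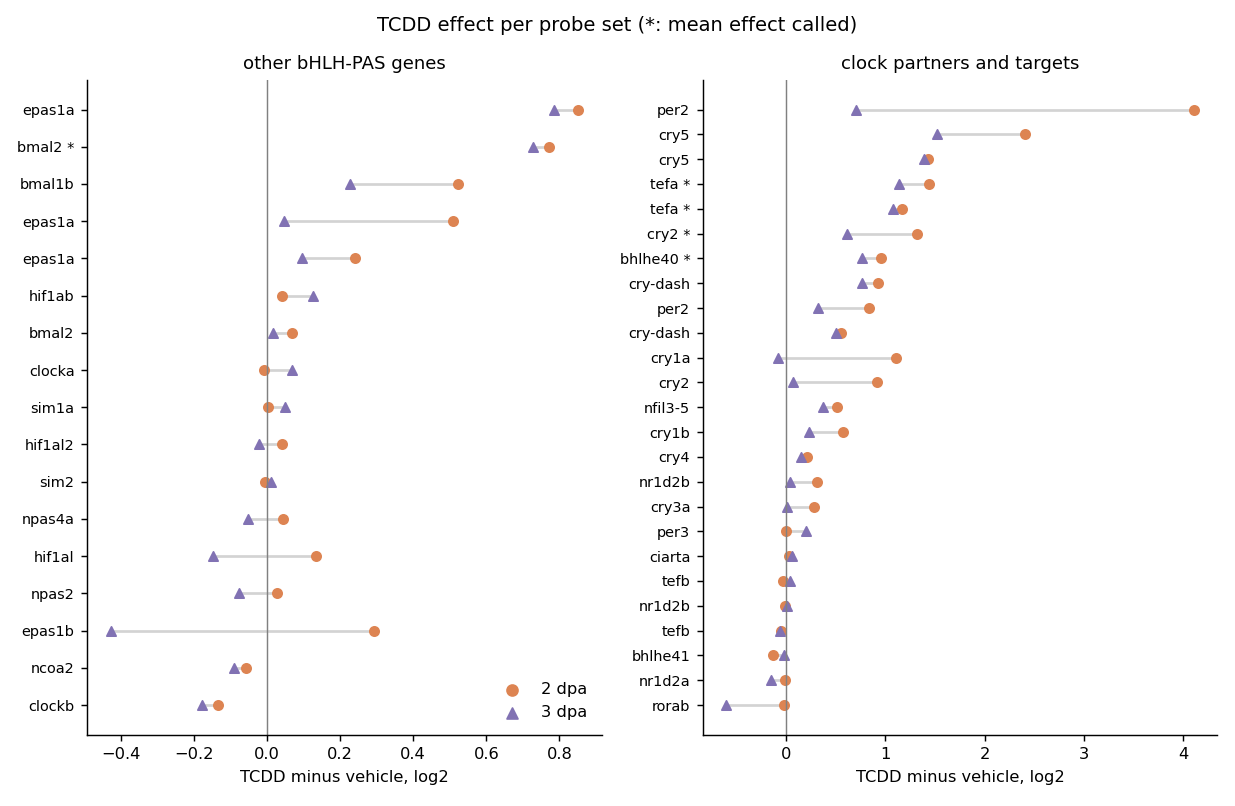
TCDD minus vehicle (x axis, log2) at 2 dpa (circles) and 3 dpa (triangles) for each probe set of the other bHLH-PAS genes (left) and of the clock partners and targets (right), ordered by the mean effect; the panels have different x scales. A star marks a called mean effect, 1 probe set of bmal2 on the left and 4 probe sets of tefa, cry2 and bhlhe40 on the right.

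The chaperones and coactivators of the AHR gave 0 calls among 14 probe sets of 10 genes in any TCDD comparison, a count that the background shares of 0.161%, 0.574% and 5.0% would also give, with a median mean effect of 0.04. The stress-induced HSP90 gene hsp90aa1.2 had the largest values, 3.12 and 3.09 for its probe sets, with adjusted p = 0.0953 and 0.112. The former read 4.0, 4.77 and 3.79 on TCDD 2 dpa replicate 3 and TCDD 3 dpa replicates 1 and 3 but −1.03 on TCDD 3 dpa replicate 2. Without that replicate 2 probe sets of this list were called for the mean effect. The hsp90ab1 and ptges3a probe sets, which encode the constitutive HSP90 and its cochaperone p23, had mean effects between −0.12 and 0.12.

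Among 10 probe sets of 8 genes listed as the AHR battery, tiparp aside, 3 were called higher at 2 dpa and 4 at 3 dpa, and 0 lower. Over all probe sets 0.0903% and 0.284% were called higher. With 1 array left out the counts of the list ran from 0 to 3 and from 1 to 4. For the mean effect cyp1a, the related enzyme gene cyp1c1 in 2 of its 3 probe sets and the sulfotransferase gene sult6b1 rose, by 8.31, 5.59, 0.91 and 1.27. These 4 calls stand beside 1.80% of all probe sets called higher. The sizes for cyp1a and the higher cyp1c1 probe set ran from 4.58 to 8.73 and from 3.85 to 6.12 over the alternatives, with the calls kept in each. Of the 10 probe sets 7 lay above 0 for the mean effect and 3 below, those of lfng (−0.55), nqo1 and aldh3b1 (−0.01). The quinone reductase gene nqo1 was −0.34 (adjusted p = 0.0636), and its 6 TCDD arrays lay below its 6 vehicle arrays. Such separation, TCDD lower, was found in 418 of the 15502 probe sets. The remaining cyp1c1 probe set read 0.11 (adjusted p = 0.402). On the mean effect the reading of tiparp (1.17) lay between those of sult6b1 and the lower called cyp1c1 probe set, which is not a ranking of the genes.

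Of 8 probe sets from 7 other genes whose enzymes add or remove ADP-ribose, among them parp2, parp3 and parp16, 0 were called in any TCDD comparison, which at shares of 0.161%, 0.574% and 5.0% over all probe sets is no result about the family. Their mean effects ran from −0.42 (adprs, an ADP-ribose hydrolase, adjusted p = 0.079) to 0.21 (parp2). Of 11 probe sets from 9 hypoxia-induced genes, targets of the ARNT partners of the HIF family, 0 were called on a single day, beside 0.161% and 0.574% of all probe sets, and 2 for the mean effect, beside 5.0%. For the mean effect pfkfb4b fell by 1.09 (adjusted p = 0.0228) and a probe set of pfkfb3 rose by 1.58 (adjusted p = 0.047), calls kept with 6 and 2 of the 12 arrays left out in turn. A further pfkfb3 probe set read 0.01 (adjusted p = 0.981). Both genes encode bifunctional enzymes that regulate glycolysis.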

How the data were processed

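The deposited value is a linear ratio per probe set and array. GCRMA is named, without a version, in the submitters' processing notes. The scaling was read from the values: of 15617 probe sets, 12064 had a median of 1 over the 12 arrays (tolerance 1e-06), 3553 a lower and 0 a higher one. After 115 control probe sets were set aside, 15502 were tested as log2 values without a pseudocount, as the lowest ratio was 0.000773. The platform annotation gave 1 symbol for 10795 of them, several for 135 and none for 4572, and Entrez identifiers matched RefSeq (GRCz12tu) for 10711.

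A mean for each of the 4 groups was fitted with limma 3.58.1 (lmFit, eBayes) in R 4.3.3, with 8 residual and 2.08 prior degrees of freedom. Tests are two-sided, and 3 arrays against 3 allow no exact p below 0.1. The fit was checked for the size of its estimates only, on simulated data with independent noise, which does not test the calls on these arrays. Exact permutation tests used SciPy 1.17.1. The members and the lists (AHR battery, chaperones and coactivators, bHLH-PAS, clock, hypoxia, PARP, tissue markers) were chosen with earlier results of these data known, and control groups are shared between comparisons. All members were named. Of other lists, called genes and examples were named, the examples after their values were seen, and for likeness the 3 genes with a non-clone symbol and the highest Pearson r over 12 arrays. Alternatives left out each array in turn or changed block, scaling, pseudocount, filter, moderation, weights or the arrays fitted. No sequences were used.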

Additional observations from a re-analysis of the deposited data

How the results depend on the processing

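The labels number the replicates alike but name no shared batch, so the numbers were not taken as pairing. Deviations from group means correlated between same-numbered arrays by −0.25 to 0.49, over 0.1 in 7 of 12 pairs. Between differently numbered arrays they correlated by −0.58 to 0.45. These values do not settle whether a number marks a batch. With a replicate block the called probe sets at 3 dpa were 147 against 89, and tiparp kept its call there (adjusted p = 0.0348) and for the mean effect (0.00837).

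Across all probe sets, calls at 2 dpa (25) ran from 8 to 49 when 1 array was left out and were 163 with quantile normalization, 39 with the hybridisation block and 247 with array weights. Calls at 3 dpa (89) ran from 28 to 391 and were 217 with that block, 426 with weights and 6 with only the compared arrays. Mean-effect calls (775) ran from 296 to 1471 and were 1168 with quantile normalization, 387 with the block and 1681 with weights. The block gave 26 calls against 0 between days in vehicle, and 15 against 0 for the difference between days, but both rest on TCDD 3 dpa replicate 2, the only array outside the vehicle 3 dpa group at the high level.

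The tiparp effect at 2 dpa was called with quantile normalization (1.13) and array weights (0.91) and ran from 0.85 to 1.24 over the left-out arrays. At 3 dpa it ran from 1.22 to 1.44, and its call ended with only the compared arrays (1.32, adjusted p = 0.089, in a range from 0.00819). The ahr2 mean effect ran from 0.41 to 0.57 over the left-out arrays. It was called with array medians subtracted (0.51), quantile normalization (0.52), low-median probe sets left out (0.49) and weights (0.43). With the hybridisation block it was 0.64. The 3 dpa part of that value sets TCDD 3 dpa replicate 2, the highest ahr2 array, alone against the vehicle arrays. The cause of these changes was not tested.

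Of 738 member values under alternatives, 695 kept direction and side of the threshold. Part of that count was fixed in advance, since leaving out an array of a group not compared leaves an effect as it was. Most member values also started far from the threshold, so the count is no measure of stability. The 30 that changed sign were not called. These were at 2 dpa ahr1a (−0.017 to 0.035 over left-out arrays) and at 3 dpa the first arnt2 probe set (−0.20 to 0.047) and bmal1a (−0.059 to 0.20, and −0.23 with the hybridisation block). Between days in vehicle they were ahr2 (−0.13 to 0.023), bmal1a (−0.030 to 0.20) and, with the block, ahr1a (−0.024) and the second arnt2 probe set (−0.039). Between days in TCDD they were ahr2 (−0.15 to 0.17, −0.0024 with medians subtracted, −0.069 with quantile normalization, −0.15 with the block) and tiparp (−0.10 to 0.29, and −0.078 with quantile normalization). For the difference between days they were ahr2 (−0.091 to 0.24), the second arnt2 probe set (−0.081 to 0.40) and ahr1a (−0.0058 to 0.068).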
